A study of Mus musculus with 17 samples.

Results

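Cux1, Cux2, Rorb, Foxp2, Tle4, Fezf2, Bcl11b, Tshz2 and Etv1 are regulators of transcription that are used to tell the layers of the cerebral cortex apart. They were taken by name from the rows of the deposited count matrix, where all 9 were found among 26131 genes. Single-nucleus RNA was counted in the posterior brain of 17 female mice aged 2.3 months. All of them, controls included, were homozygous for a knock-in of the human transferrin receptor (TfR). The groups were saline (n = 4), a free antisense oligonucleotide against the long noncoding RNA Malat1 (Malat1 ASO, 2 mg per kg, n = 4), an oligonucleotide against Malat1 carried by a TfR antibody (labelled anti-TfR:Malat1, 50 mg per kg, n = 6), and one on a transport vehicle that binds TfR (OTV:Malat1, 50 mg per kg, n = 3). Each animal received 4 weekly intravenous doses over 24 days and was harvested 72 hours after the final dose. How much oligonucleotide the doses of both carriers held is not given in the sources used here. Of 284074 nuclei, 193268 (68.0%) carried the deposited label of neurons, and the results below are for these nuclei. Each animal gave 8588 to 13651 neuron-labelled nuclei with 48785604 to 72332862 UMIs (median 3894 to 6253 per nucleus), where a UMI (unique molecular identifier) stands for 1 captured RNA molecule.

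Neurons of the cortex are born in order and settle in layers, and each layer sends its axons to other targets. Combinations of transcription factors set these identities during development, and many stay on in the adult. Cux1 and Cux2 are CUT homeodomain factors of the upper layers, and Rorb is an orphan nuclear receptor of layer 4. Fezf2, Bcl11b and Etv1 are a zinc finger factor, a second zinc finger factor and an ETS factor of layer 5, where Fezf2 and Bcl11b mark cells that project below the cortex. Foxp2 is a forkhead factor and Tle4 a Groucho-type corepressor of layer 6, and Tshz2 is a teashirt-family zinc finger factor of near-projecting cells. None of these genes is specific to cortex: Foxp2 and Bcl11b are also known from striatal neurons, Bcl11b from the dentate gyrus, and Rorb and Foxp2 from the thalamus.

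In GRCm38, with gene models of GENCODE M21, Cux1 lies at chr5:136248135-136567490 and Cux2 at chr5:121856366-122050102, both on the minus strand. Rorb lies at chr19:18930605-19111196 and Tle4 at chr19:14448150-14598051, also on the minus strand. Fezf2 (chr14:12342094-12348189) and Bcl11b (chr12:107910403-108003602) are on the minus strand. Foxp2 (chr6:14901349-15441977), Tshz2 (chr2:169633013-170071816) and Etv1 (chr12:38779380-38870484) are on the plus strand. Their lengths run from 6.10 kb for Fezf2 to 540.6 kb for Foxp2. Malat1, the target of the oligonucleotides, lies at chr19:5795690-5802672 on the minus strand. The antisense gene Gm16599 lies within Cux1, and the antisense genes Gm3970 and Gm15637 overlap Cux2. These partners have rows of their own in the matrix, but no source used here gives whether the counting used strand, and whether reads were shared between them and Cux1 or Cux2 was not tested.

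Among pairs without Fezf2, Cux2 and Rorb had the highest ratio of nuclei holding both genes to the number unrelated genes would give, and both were highest in the same neuronal cluster. Their promoters are therefore shown as RefSeq gives them (GRCm38.p6), 250 bases before to 50 bases after a start of transcription, with matches to the E-box CANNTG in capitals.
Cux2, chr5:122049802-122050101, minus strand: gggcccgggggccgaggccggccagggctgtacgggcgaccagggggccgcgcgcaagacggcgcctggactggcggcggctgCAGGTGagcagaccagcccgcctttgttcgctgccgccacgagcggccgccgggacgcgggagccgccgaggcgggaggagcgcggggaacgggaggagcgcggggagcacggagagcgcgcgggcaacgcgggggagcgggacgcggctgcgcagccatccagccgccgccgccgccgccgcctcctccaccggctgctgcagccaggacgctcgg
Rorb, chr19:19111147-19111446, minus strand: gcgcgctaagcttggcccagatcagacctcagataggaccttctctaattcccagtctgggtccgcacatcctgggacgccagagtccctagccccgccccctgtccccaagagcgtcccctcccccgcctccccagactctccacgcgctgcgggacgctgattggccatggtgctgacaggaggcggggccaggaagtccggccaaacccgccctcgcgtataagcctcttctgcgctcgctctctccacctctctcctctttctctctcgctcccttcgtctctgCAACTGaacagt
Each window held 1 E-box. The Cux2 window was 80.3% G and C with 48 CG pairs, and the Rorb window was 63.7% G and C with 20. Neither window held AGGTCA, the half-site of ROR-type receptors, or ATCGAT, a core bound by Cux factors, searched on both strands. Among 32851 RefSeq promoters of this length, 72.3% held CANNTG, 16.3% held AGGTCA and 0.925% held ATCGAT. A further start of Cux2 (chr5:122047776-122048075) had 2 E-boxes and 1 ATCGAT, and a further start of Rorb (chr19:19001068-19001367) had 3 E-boxes. A match is a run of letters and was not tested for binding. Promoter entries were found for 8 of the 9 genes, Foxp2 being the exception.

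The regulators differed more between deposited clusters than between animals. Levels are given as CPM (UMIs of a gene per 1000000 UMIs), summed per animal over neuron-labelled nuclei. Over all neurons Tshz2 stood at 325.8 ± 51.9 CPM (SD, n = 17), Rorb at 203.7 ± 31.0, Cux1 at 202.0 ± 12.4 and Foxp2 at 185.1 ± 22.7. Tle4 stood at 142.8 ± 9.99, Cux2 at 141.7 ± 7.44, Bcl11b at 91.8 ± 6.97, Etv1 at 71.0 ± 10.0 and Fezf2 at 6.66 ± 1.63. Genes differ in length, so their order was also read per kb. A UMI stands for 1 molecule of any length, and whether counts scale with gene or exon length was not tested. Per kb of gene, introns included, Rorb (1.13 CPM per kb), Fezf2 (1.09), Bcl11b (0.986) and Tle4 (0.953) were the highest and Foxp2 (0.342) the lowest. Per kb of exon the order was another, from Tshz2 at 41.9 to Fezf2 at 2.19 CPM per kb. Fezf2 was thus the lowest regulator in CPM and per exon length, but came just after Rorb per gene length, so its place depended on the divisor.

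**Figure D1:**
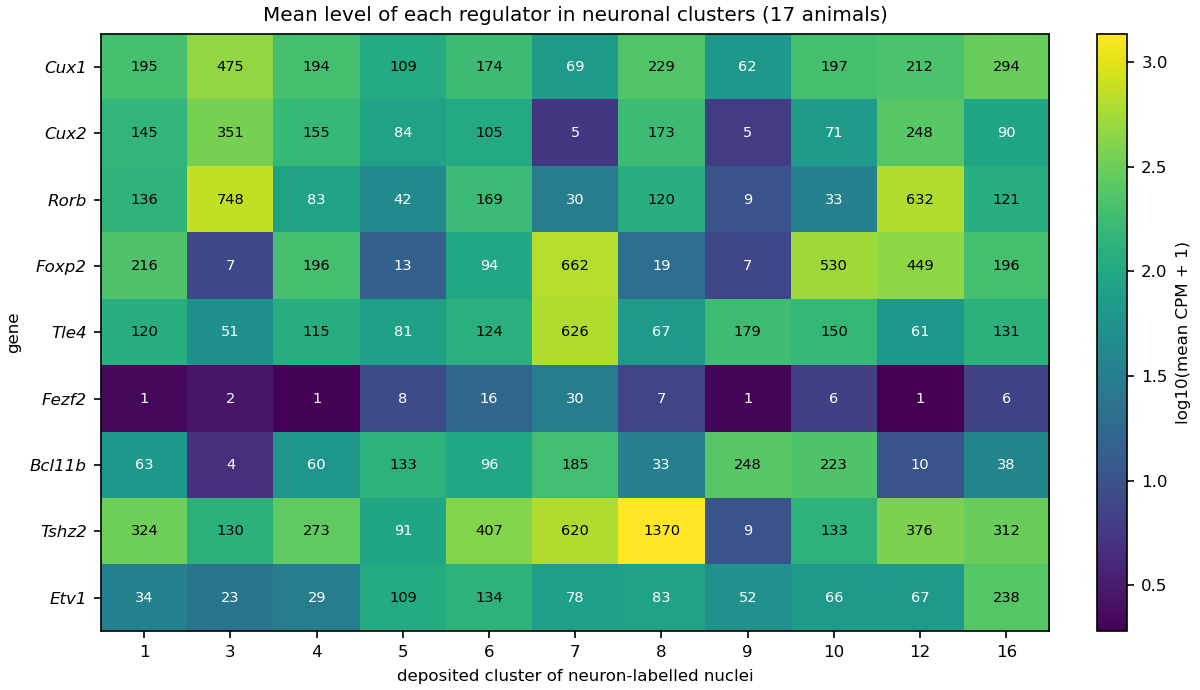
Mean level (CPM, 17 animals) of each regulator in the 11 deposited clusters of neuron-labelled nuclei with neuronal leading genes; colour shows log10(mean CPM + 1). Rorb, Cux1 and Cux2 peak in cluster 3, Foxp2, Tle4 and Fezf2 in cluster 7, Tshz2 in cluster 8 and Bcl11b in cluster 9.

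Clusters are named by their numbers, and 17 of them held at least 20 neuron-labelled nuclei in every animal. Of these, 11 were led by neuronal genes and the other 6 by genes of oligodendrocytes, their precursors, microglia or other non-neuronal cells. Among the 11, cluster 7 was layer 6 corticothalamic-like: besides Foxp2 and Tle4 it held the highest Syt6 (85.9 CPM) and Rprm (20.5 CPM). Cluster 12 was thalamic-like, with Tcf7l2 (763.7 CPM), Prkcd (272.0) and Plekhg1 (1127 CPM) among its leading genes, and cluster 10 was striatal-like, with Rgs9 (382.0), Penk (110.4) and Drd2 (91.1). Cluster 9 was dentate granule-like, with Prox1 at 263.7 CPM and Stxbp6 at 1141 CPM. Clusters 1 and 4 were inhibitory-like (Gad2 at 214.0 and 185.7 CPM), but also held the subcortical excitatory genes Slc17a6 (70.9 and 56.2 CPM) and Tcf7l2 (113.5 and 84.9 CPM). Clusters 3, 5, 6 and 8 held the excitatory markers Slc17a7 (177.8 to 221.6 CPM) and Neurod6 (32.9 to 69.0 CPM), and cluster 16 stayed unnamed, since Reln, Ndnf and the cerebellar granule genes Gabra6 and Fat2 all led it. The deposited doublet calls covered 62.0% of cluster 6 and 44.9% of cluster 4, against 22.4% of all neurons. Levels between clusters are a description with no test, because the clusters were made from these nuclei and the genes used to make them are not given in the sources used here. Orders of clusters below are among the 11 neuronal clusters unless another is named.

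Among the 11 neuronal clusters, the upper-layer regulators peaked together in cluster 3. Rorb was highest there (748.3 ± 130.1 CPM, range 581.5 to 936.1 over 17 animals), followed by the thalamic-like cluster 12 at 631.5 ± 64.1 CPM. Cluster 3 was above cluster 12 in 15 of 17 animals when compared within the same animal, although their ranges over animals overlapped. Next for Rorb among the 11 came cluster 6 at 168.9 ± 23.6 CPM, with no overlap with cluster 12. Of the 6 clusters with other leading genes, cluster 14 (487.5 ± 90.9 CPM) and cluster 17 (181.2 ± 39.0 CPM) also stood above cluster 6 for Rorb. Cux2 was also highest in cluster 3 (351.2 ± 25.6 CPM, range 301.1 to 390.9), here without overlap with cluster 12 (247.8 ± 23.4). Cux1 was highest in cluster 3 (474.9 ± 67.6 CPM), beside 492.7 ± 100.4 CPM in cluster 11, whose leading genes are not neuronal, and was the flattest of the upper-layer genes: its highest cluster was 7.64 times its lowest, against 77.5 times for Cux2 and 80.4 times for Rorb. Cux2 was lowest in the corticothalamic-like and dentate granule-like clusters, at 4.53 ± 1.59 CPM in cluster 7 and 5.05 ± 1.44 CPM in cluster 9.

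The layer 6 regulators shared their highest cluster but differed in the clusters that came next. In cluster 7, Foxp2 was at 662.0 ± 57.4 CPM (range 542.4 to 741.3) and Tle4 at 625.5 ± 54.8 CPM (range 524.2 to 721.6). Foxp2 then stayed high in the striatal-like cluster 10 (530.3 ± 86.5 CPM) and the thalamic-like cluster 12 (448.8 ± 43.8 CPM), and clusters 7 and 10 overlapped. Foxp2 was near its floor in cluster 3 (7.27 ± 1.89 CPM) and cluster 9 (6.79 ± 2.43 CPM), 97.5 times below its highest cluster. Tle4 set cluster 7 apart from every other neuronal cluster without overlap, the next being cluster 9 at 179.2 ± 18.6 CPM. Its highest cluster was 12.3 times its lowest, cluster 3 at 50.7 ± 4.79 CPM.

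The layer 5 regulators did not share a highest cluster. Fezf2 was highest in cluster 7 (30.4 ± 5.42 CPM, range 20.8 to 39.3), above cluster 6 (15.8 ± 3.87 CPM) in all 17 animals although the ranges overlapped. Bcl11b was highest in the dentate granule-like cluster 9 (248.5 ± 17.8 CPM) and the striatal-like cluster 10 (223.0 ± 33.3 CPM), which overlapped, followed by cluster 7 at 184.7 ± 20.2 CPM. Bcl11b was lowest in cluster 3, at 3.81 ± 1.16 CPM. Etv1 had its highest mean in the unnamed cluster 16 (238.5 ± 244.8 CPM), but this cluster varied most between animals, from 0 CPM in saline 1 to 686.4 CPM in OTV:Malat1 1. Cluster 16 made up 0.185% to 9.69% of an animal's neurons (median 0.454%), the highest being Malat1 ASO 3. Among the other 10 neuronal clusters, Etv1 was highest in clusters 6 (134.2 ± 36.1 CPM) and 5 (108.9 ± 15.1 CPM). Of the clusters with non-neuronal leading genes, cluster 13 held Etv1 at 197.7 ± 17.02 CPM and cluster 11 at 120.0 ± 48.2 CPM.

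Tshz2 had the widest range of the 9 genes. It stood at 1370 ± 395.4 CPM in cluster 8, from 716.6 CPM in Malat1 ASO 2 to 2064 CPM in anti-TfR:Malat1 1, and at 9.45 ± 5.37 CPM in cluster 9, 145.0 times lower. Cluster 7 was next at 620.1 ± 82.4 CPM, below cluster 8 in 17 of 17 animals. The spread over animals depended on the cluster mix for some genes more than others. Giving each animal the same mix of the 11 clusters lowered the coefficient of variation over animals from 12.6% to 7.09% for Foxp2, from 7.67% to 4.76% for Bcl11b and from 15.6% to 11.6% for Rorb. For Tshz2 it stayed near its first value (16.2% and 16.6%), and for Cux2 it was 5.38% and 6.93%.

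For each regulator, the genes with the most similar pattern over the 17 clusters were picked by Pearson's r on log2(CPM + 1), among 10063 genes; the clusters share animals and depth, so r is given with no p. Cux1 was most like its antisense partner Gm16599 (r = 0.99), for which shared reads were not tested, and Whrn (0.88). Cux2 and Rorb shared Col26a1 as the most similar gene (0.85 and 0.91), followed by Nectin3 for Cux2 (0.78) and 9430041J12Rik for Rorb (0.86). Foxp2 was most like D030068K23Rik (0.88) and Cdh18 (0.86), and Tle4 like Flna (0.75) and Gm16638 (0.70). The layer 5 genes had as nearest Jcad (0.83) and Usp46 (0.82) for Fezf2, Cdh9 (0.93) and Htr4 (0.90) for Bcl11b, and Lnx2 (0.79) and Usp3 (0.76) for Etv1. Tshz2 was nearest to Elavl4 (0.90) and Hivep1 (0.88). Within the 9, the closest pair was Cux2 and Rorb (0.76), and the most opposed was Cux2 and Tle4 (-0.72). Both depended on the clusters used: over the 11 neuronal clusters the closest pair was Cux1 and Cux2 (0.88) and the most opposed Rorb and Bcl11b (-0.93).

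Detection was then read in single nuclei. To compare nuclei of unequal depth, each was thinned at random to 500 UMIs, the depth that every nucleus reached. Of thinned neurons, 55.7% held no UMI of the 9 genes, 33.6% held 1 of the genes and 10.7% held 2 or more, against 73.1% with 2 or more before thinning. Tshz2 was detected in 11.6% ± 1.63 of thinned neurons (SD, n = 17 animals), Cux1 in 9.38% ± 0.492, Rorb in 7.36% ± 0.911 and Fezf2 in 0.309% ± 0.103. The same shares in oligodendrocyte-labelled nuclei (median 1279 UMIs before thinning, against 4614 in neurons) were 0.734% for Tshz2 and 0.736% for Rorb, but 5.37% for Cux1. Microglia-labelled nuclei (median 1004 UMIs) held Cux1 in 22.0% ± 2.27 and Tle4 in 10.4% ± 1.43, above the shares of 9.38% and 6.76% in neurons. Detection of Cux1 and Tle4 thus did not set neurons above microglia, while Rorb, Foxp2, Bcl11b and Tshz2 were each under 1% in both non-neuronal labels. Etv1, at 3.56% in oligodendrocytes and 5.21% in microglia, was likewise no lower there than in neurons as a whole (3.42%). Fezf2 stood at 0.139% and 0.140%.

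For each of the 36 pairs, co-detection was the share of nuclei with both genes, divided by the product of the shares of each gene, so that 1 is the value of unrelated genes. Among all neurons thinned to 500 UMIs, 6 pairs were above 1 in all 17 animals. The upper-layer genes formed a block: Cux2 and Rorb stood at 1.72 ± 0.181 (SD, n = 17), Cux1 and Rorb at 1.66 ± 0.212, and Cux1 and Cux2 at 1.52 ± 0.142. Among the deep-layer genes, 3 pairs were above 1 in every animal, with Foxp2 and Tle4 at 1.63 ± 0.200, Tle4 and Bcl11b at 1.53 ± 0.197, and Fezf2 and Tshz2 at 2.01 ± 0.684. Fezf2 and Etv1, both layer 5 genes, had the highest mean of any pair (2.62 ± 1.59), resting on only 54 nuclei with both. The deep-layer genes did not form a single block: Foxp2 and Tshz2 stood at 0.841 ± 0.129, Foxp2 and Etv1 at 0.824 ± 0.194, and Bcl11b and Tshz2 at 0.816 ± 0.169, above 1 in 2, 2 and 3 of the 17 animals. Between upper-layer and deep-layer genes the ratio was under 1 in every animal for Rorb and Bcl11b (0.369 ± 0.113), Cux2 and Bcl11b (0.414 ± 0.113), Cux2 and Tle4 (0.599 ± 0.0951) and Rorb and Tle4 (0.669 ± 0.131), while Cux2 and Tshz2 were at 1.07 ± 0.118.

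Several of these ratios were near 1 within clusters. Over single clusters with at least 20 nuclei holding both genes, the median ratio was 1.05 for Cux2 and Rorb (7 clusters), 0.990 for Cux1 and Rorb (7 clusters), 0.972 for Foxp2 and Tle4 (6 clusters) and 1.09 for Rorb and Bcl11b (5 clusters). Fezf2 and Tshz2 kept their ratio, with a median of 2.01 over 2 clusters. Other pairs were far from 1 within cluster 7. There Tshz2 and Etv1 were at 3.68 ± 0.707, above 1 in 17 of 17 animals, and Foxp2 and Tshz2 at 0.385 ± 0.110, above 1 in none. In cluster 3, Rorb and Tshz2 were at 0.295 ± 0.181, and in cluster 8 at 0.312 ± 0.174, again above 1 in no animal. Cux1 and Cux2 kept a ratio of 2.51 ± 0.684 in cluster 6, above 1 in all 17 animals, where 62.0% of nuclei were called doublets. In the striatal-like cluster 10, Cux2 and Foxp2 were at 1.58 ± 0.340, above 1 in all 17.

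**Figure D2:**
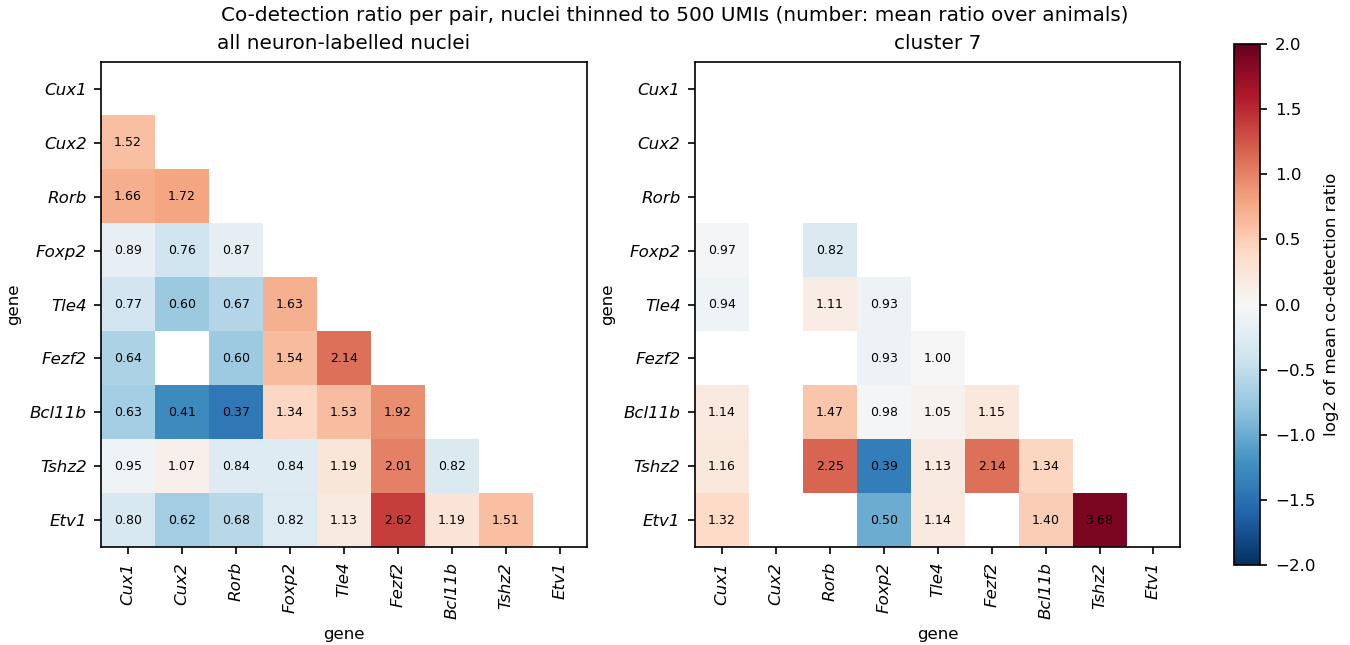
Co-detection ratio of each pair in nuclei thinned to 500 UMIs, mean over animals, in all neuron-labelled nuclei and in cluster 7; colour shows its log2, and pairs with fewer than 20 nuclei holding both are blank. In all neurons the 3 pairs of upper-layer genes are above 1, and the pairs of deep-layer genes lie on both sides of 1. In cluster 7, Tshz2 and Etv1 reach 3.68 and Foxp2 and Tshz2 lie at 0.385.

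A nucleus was then called led by a regulator if that gene had the most UMIs of the 9, with at least 2 and no tie. Tshz2 led 30110 neurons, Rorb 19555, Foxp2 18650, Cux1 14864, Tle4 11301, Cux2 10968, Bcl11b 9517, Etv1 5976 and Fezf2 83, while 72244 were led by none. Fezf2 led fewer than 20 nuclei in each animal and was left out of the Malat1 comparisons. Leads follow depth in part: the median was 3651 UMIs in neurons led by none and 4646 (Tshz2) to 5795 (Etv1) among the 8 regulators compared.

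Nuclei led by different regulators within 1 cluster also differed in marker genes that had no part in the lead. In cluster 7, Tshz2-led nuclei held the near-projecting genes Lypd1 (93.7 ± 14.9 CPM, n = 17), Trhr (56.4 ± 15.4) and Slc17a8 (29.7 ± 10.1), where Foxp2-led nuclei held 4.83, 3.60 and 0.265 CPM. The corticothalamic gene Syt6 went the other way, 11.9 ± 4.83 CPM against 121.7 ± 18. In cluster 3, Rorb-led nuclei held the layer 4 genes Whrn (88.7 ± 17.05 CPM) and Rspo1 (53.1 ± 12.5), where Cux2-led nuclei held 11.04 and 17.5 CPM and more of the upper-layer genes Rasgrf2 (336.5 against 160.6 CPM) and Otof (35.0 against 1.42 CPM). In the inhibitory-like cluster 1, Bcl11b-led nuclei held Reln at 937.0 ± 221.6 CPM, Lamp5 at 69.8 and Ndnf at 78.1, against 107.8, 8.37 and 4.63 CPM in Tshz2-led nuclei. In cluster 5, Tle4-led nuclei held the CA3 genes Cpne4 (624.4 CPM) and Iyd (10.2), against 223.8 and 0.685 CPM in Etv1-led nuclei, which held more of the CA1 genes Fibcd1 (24.0 against 4.82 CPM) and Mpped1 (132.2 against 33.2 CPM). In cluster 10, Foxp2-led nuclei held more Drd1 (88.3 against 32.3 CPM) and Bcl11b-led nuclei more Drd2 (211.9 against 39.2 CPM) and Penk (183.7 against 74.5 CPM). The rule did not use these genes, but they were picked from the marker lists after their values were seen. Other genes of those lists are not shown for these nuclei. No test is given, since the genes may have entered the authors' clustering.

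The first treatment question was whether any compound altered the regulators themselves. The 3 comparisons with saline share the saline animals, the comparison of both carriers shares the OTV:Malat1 animals with them, and a sum over nuclei cannot tell fewer cells of a type from less RNA per cell. Tshz2 stood at 284.5, 334.4, 302.3 and 292.2 CPM in the saline animals and at 393.6, 358.5, 332.5, 288.7, 323.5 and 444.7 CPM in the anti-TfR:Malat1 animals. The anti-TfR:Malat1 group was the higher, and the groups overlapped. By edgeR's quasi-likelihood test its log2 difference was 0.27 (SE 0.13, 95% interval 0.0041 to 0.53), with an unadjusted p of 0.0469 and an adjusted p of 1.00 over 20906 genes. It was the only 1 of the 36 tests of the 9 regulators in neurons with an unadjusted p under 0.05, and none of the 36 passed the adjusted threshold of 0.05 in edgeR or in DESeq2. Percent called over all genes was 0% in each of the 4 comparisons. In data simulated for OTV:Malat1 against saline, 67, 67 and 66 of 20765 genes were changed by 0.5, 1 and 2 on the log2 scale. The same test recovered 29.9%, 76.1% and 98.5% of them. Recovery where only a few genes change, or of a gene as low as Fezf2, was not tested.

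Etv1 was the only regulator whose groups did not overlap in any comparison. Its saline animals were at 52.9, 70.7, 66.4 and 70.1 CPM and its OTV:Malat1 animals at 82.1, 72.1 and 77.6 CPM, a log2 difference of 0.19 (SE 0.15, 95% interval -0.13 to 0.51; edgeR adjusted p = 1.00). All 3 OTV:Malat1 animals were above all 4 saline animals, as were 3.79% of all genes in one direction or the other in this comparison (0.660% for Malat1 ASO, 0.364% for anti-TfR:Malat1 and 2.53% for OTV:Malat1 against anti-TfR:Malat1). The other 8 regulators differed between OTV:Malat1 and saline by -0.09 (Foxp2) to 0.09 (Fezf2) on the log2 scale. Leaving Fezf2 aside, the widest 95% intervals in this comparison ran from -0.35 to 0.51, so changes beyond that size were outside the intervals of the 8 genes. Against anti-TfR:Malat1, the OTV:Malat1 group differed most for Tshz2, at -0.27 (SE 0.14; edgeR adjusted p = 0.994).

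Cluster by cluster the result was the same. In 17 clusters, 0 of 137 tests of a regulator were called in each comparison by edgeR, with 3, 9, 3 and 6 of 137 at an unadjusted p under 0.05 (in turn for Malat1 ASO, anti-TfR:Malat1 and OTV:Malat1 against saline and for the carriers against each other), and DESeq2 also called 0. Percent called over all genes and clusters was 0.000522% in both OTV:Malat1 comparisons, 1 call in 191683, which was Malat1 in the oligodendrocyte-led cluster 2. The lowest p of a regulator was that of Foxp2 in cluster 17, where 97.0% of nuclei were called doublets (log2 0.51, SE 0.17, unadjusted p = 0.00407, edgeR adjusted p = 0.997, anti-TfR:Malat1 against saline). Of 44 other genes listed for cortical layers, 0 were called in neurons by edgeR or DESeq2 in any comparison, with 0, 1, 1 and 5 at an unadjusted p under 0.05. In the same order, their median log2 differences were 0.01, 0.07, 0.01 and -0.05, with 23, 31, 26 and 16 of the 44 genes above 0. The medians over all genes were -0.0033, -0.0030, 0.0024 and 0.01. The 10 of them with the highest CPM were Rora, Myt1l, Mef2c, Foxp1, Zfpm2, Nfib, Sox5, Ldb2, Bcl11a and Nfia, from 1504 ± 104.7 CPM (Rora) to 204.8 ± 19.1 CPM (Nfia).

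**Figure D3:**
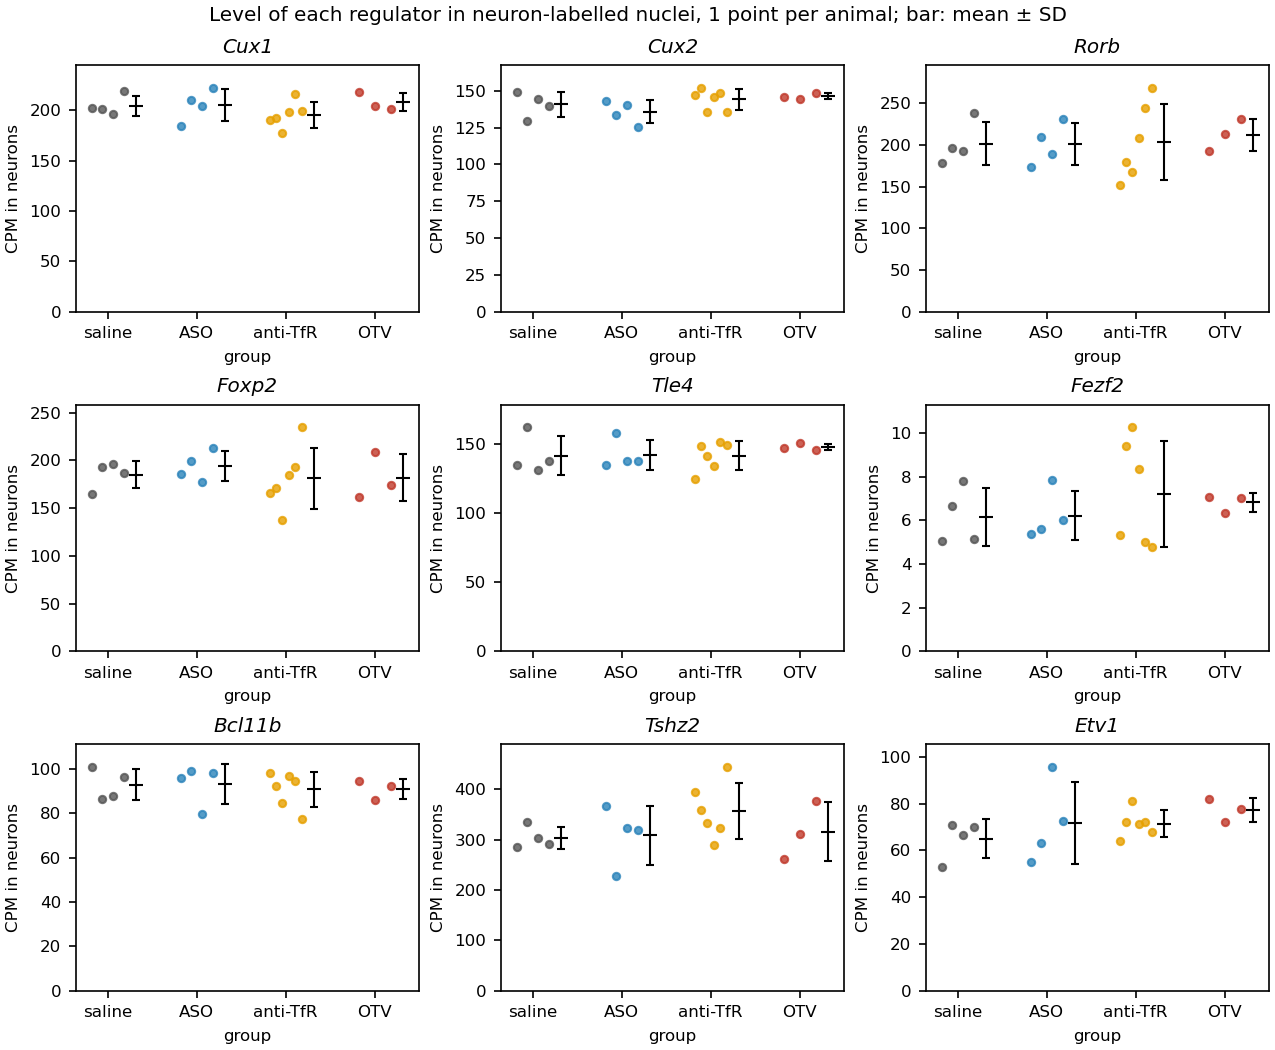
Level (CPM) of each regulator summed over neuron-labelled nuclei, 1 point per animal, by group, with mean ± SD. The groups overlap for every regulator and comparison except Etv1, where the OTV:Malat1 animals (72.1 to 82.1 CPM) lie above the saline animals (52.9 to 70.7 CPM).

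The share of neurons led by each regulator did not separate the groups either. Foxp2, for example, led 9.21% to 10.7% of neurons in the saline animals and 8.59% to 11.01% in the OTV:Malat1 animals. Over 36 exact two-sided permutation tests of animals, the lowest p was 0.179.

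The other treatment question was whether Malat1 was lowered alike in neurons led by different regulators. In Rorb-led nuclei, Malat1 made up 7.55%, 6.65%, 7.42% and 4.51% of UMIs in the saline animals and 4.11%, 4.14% and 3.19% in the OTV:Malat1 animals. The anti-TfR:Malat1 animals were at 4.34%, 6.00%, 7.38%, 7.03%, 5.63% and 5.11%, and the Malat1 ASO animals at 6.84%, 6.58%, 7.24% and 4.41%. The OTV:Malat1 animals lay below every other animal. The mean was 3.82% ± 0.539 (SD, n = 3) against 6.53% ± 1.40 (n = 4), or 58.4% of saline, and edgeR gave a log2 difference of -0.84 (SE 0.20, 95% interval -1.26 to -0.43) with an unadjusted p of 0.000397 and an adjusted p of 1.00. In Foxp2-led nuclei the OTV:Malat1 animals were at 4.59%, 5.01% and 3.60% and the saline animals at 6.91%, 6.04%, 7.04% and 3.90%, which overlapped. The mean was 73.7% of saline and the log2 difference -0.49 (SE 0.19, 95% interval -0.89 to -0.09; edgeR adjusted p = 1.00).

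The other led sets lay between Rorb and Foxp2. OTV:Malat1 stood at 63.0% of the saline mean in Cux2-led nuclei, 64.6% in Etv1-led, 66.6% in Cux1-led, 69.6% in Tle4-led, 70.6% in Bcl11b-led and 71.2% in Tshz2-led nuclei. By edgeR, Malat1 was lower in all 8 led sets, by -0.84 to -0.49 on the log2 scale, at an unadjusted p under 0.05 in 8 of 8. None was called after adjustment over all genes, by edgeR or DESeq2. DESeq2 also gave 8 of 8 at an unadjusted p under 0.05, and percent called over genes and led sets was 0%. Malat1 was the gene to be reported in these sets, while the edgeR adjustment covered 12510 (Etv1-led) to 16466 (Tshz2-led) genes a set. An edgeR adjustment over the led sets alone was not run. Groups overlapped in 7 of the 8 sets, Rorb being the exception; over all genes of at least 10 CPM in the led nuclei, 3.84% of levels did not overlap. In exact permutation tests (two-sided), where 0.0286 was the smallest p possible, p was 0.0571 for Rorb and 0.114 to 0.171 for the other 7 (adjusted p = 0.305 to 0.343 over 32 tests), so none was under 0.05. Against anti-TfR:Malat1, the OTV:Malat1 animals were lower by -0.73 to -0.36 by edgeR, at an unadjusted p under 0.05 in 7 of 8 sets (8 of 8 by DESeq2) with none called. There too only Rorb did not overlap, beside 2.42% of levels over all genes (1.06% for Malat1 ASO and 0.523% for anti-TfR:Malat1 against saline, with no led set). The exact permutation p in this comparison was 0.0238 for Rorb, 0.0357 for Etv1, 0.0476 for Cux2 and 0.0714 to 0.143 for the other 5 sets, each 0.305 after adjustment. The Malat1 ASO group differed from saline by -0.05 to -0.01 and the anti-TfR:Malat1 group by -0.13 to -0.04, with 0 of 8 at an unadjusted p under 0.05 in each. Malat1 itself varied widely between saline animals, and the animals of the deposited batch 4, which held saline 4, Malat1 ASO 4 and OTV:Malat1 3, were each the lowest of their group in Rorb-led nuclei. Animals 5 and 6 of anti-TfR:Malat1 were of batch 4 too (5.63% and 5.11%), but the lowest of that group was animal 1 of batch 1 (4.34%). Within single batches, with 1 or 2 animals a group, anti-TfR:Malat1 differed from saline over the 8 led sets by -0.80 to -0.56 in batch 1, -0.16 to -0.08 in batch 2, -0.22 to -0.04 in batch 3 and 0.25 to 0.42 in batch 4. The sign thus differed between batches in every led set. Within the 3 batches that held OTV:Malat1, the difference from saline was -0.84 to -0.50 in Rorb-led and -0.49 to -0.11 in Foxp2-led nuclei. Weighted over these batches, the log2 difference in Malat1 CPM was -0.68 (Rorb) to -0.33 (Foxp2) over the 8 led sets. Without regard to batch, the same measure gave -0.76 to -0.42. Exact permutation within batches gave p = 0.25 in each set, the smallest possible there.

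Comparing led nuclei with the other neurons of the same animal takes this common variation out. In Rorb-led nuclei, the log2 difference in Malat1 from the other neurons was 0.04, 0.07, -0.03 and 0.07 in the saline animals and -0.17, -0.22 and -0.15 in the OTV:Malat1 animals. In Foxp2-led nuclei it was -0.10, -0.09, -0.11 and -0.16 in the saline animals and 0.0027, 0.09 and 0.05 in the OTV:Malat1 animals. The order of these led sets was thus turned around: Rorb-led neurons were above and Foxp2-led neurons below the others in Malat1 in the mean of the saline animals, and the reverse held in the mean of the OTV:Malat1 animals. Led nuclei were not spread evenly over clusters. Cluster 3 held 45.8% of Rorb-led nuclei, and clusters 7 and 10 held 27.6% and 20.3% of Foxp2-led nuclei. In clusters 3, 7 and 10, Malat1 differed between OTV:Malat1 and saline by -0.79, -0.60 and -0.34 (edgeR log2 difference, none called). The part of this cluster mix in the differences from the other neurons was not tested.

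Relative to saline, the within-animal difference shifted by -0.22 for Rorb, -0.09 for Cux2 and 0.16 for Foxp2, without overlap. Over all genes of at least 10 CPM in the led nuclei, groups did not overlap in 5.34% of such differences in this comparison and in 2.23% against anti-TfR:Malat1 (2.4% and 0.862% for Malat1 ASO and anti-TfR:Malat1 against saline). Each had an exact two-sided permutation p of 0.0286, the smallest that 3 against 4 animals can give, and 0.152 after adjustment over 32 tests. Against anti-TfR:Malat1 the shifts were -0.21, -0.10 and 0.17, each with an exact p of 0.0119, the smallest possible, and 0.127 after adjustment. Etv1-led nuclei shifted by -0.11 in that comparison, without overlap (exact permutation p = 0.0476, adjusted p = 0.218), but by -0.04 with overlap against saline. None of the 32 tests passed the adjusted threshold. Cux1 (-0.01), Tle4 (0.06), Bcl11b (0.08) and Tshz2 (0.11) overlapped between OTV:Malat1 and saline. In Malat1 ASO and anti-TfR:Malat1 every led set overlapped with saline, with shifts of -0.01 to 0.07. Within the 3 batches the shift was -0.24 to -0.20 for Rorb, -0.12 to -0.07 for Cux2 and 0.09 to 0.21 for Foxp2.

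**Figure D4:**
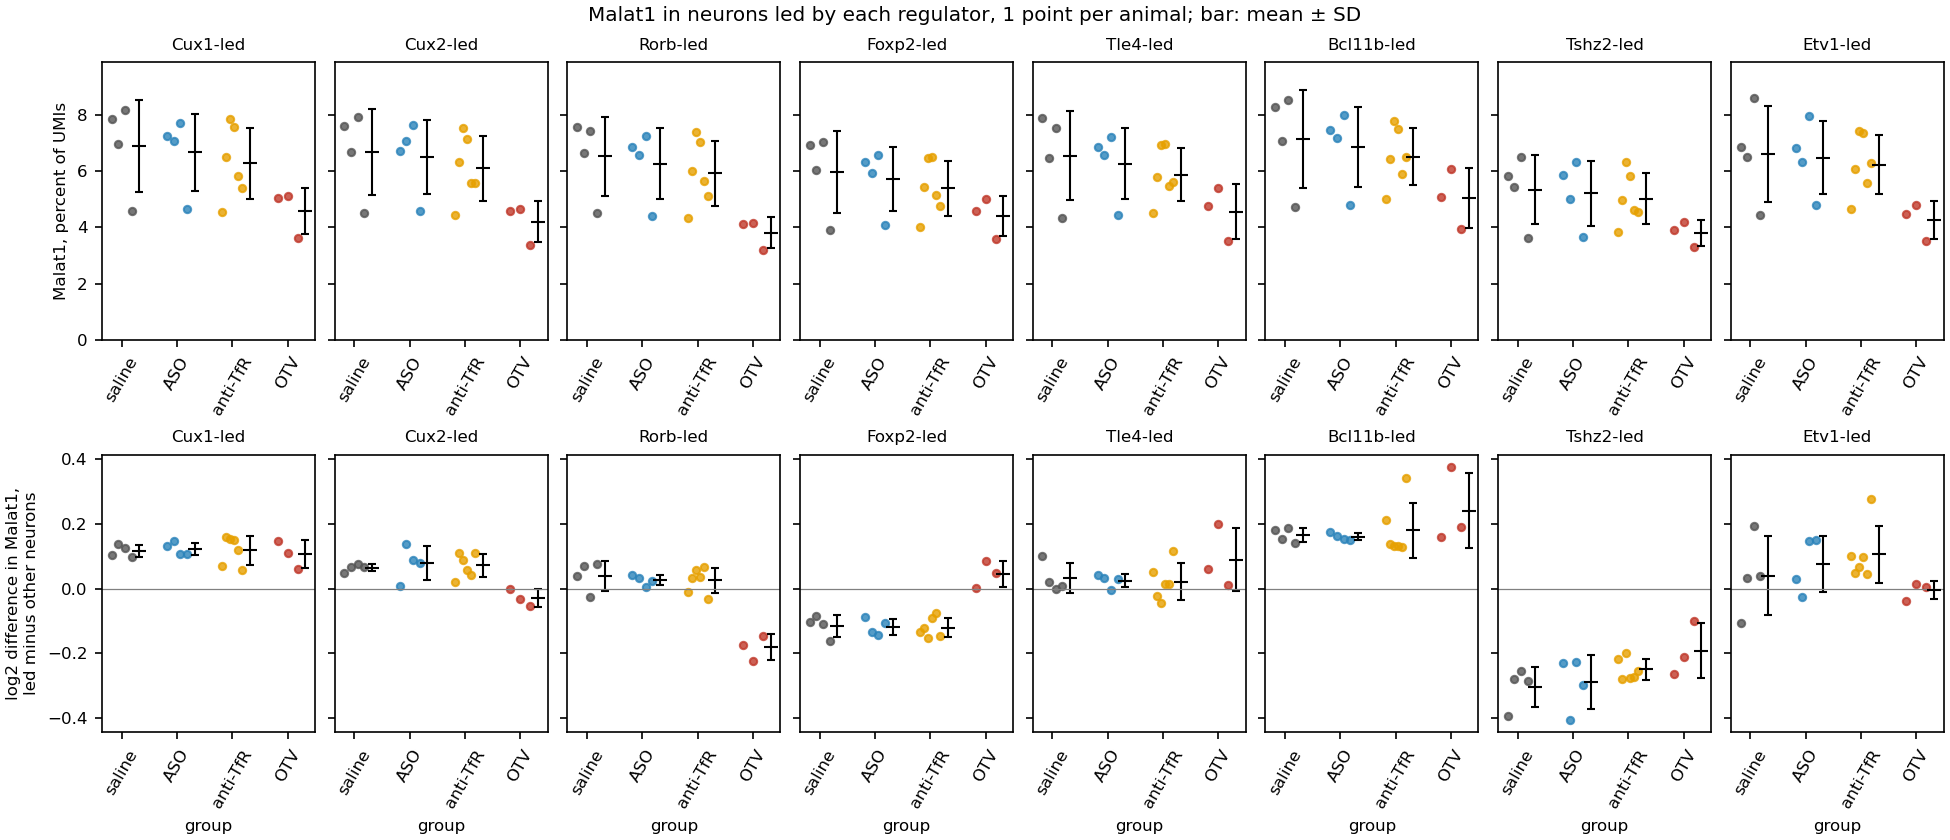
Malat1 in neurons led by each regulator, 1 point per animal with mean ± SD: above, its percent of UMIs; below, the log2 difference between led nuclei and the other neurons of the same animal. The OTV:Malat1 animals lie below the saline animals in the lower panel for Rorb (-0.22 to -0.15) and Cux2, and above them for Foxp2 (0.0027 to 0.09).

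Summed glial and subcortical excitatory markers in the led nuclei are given beside these shifts. The 6 oligodendrocyte markers summed to 327.1 CPM in Rorb-led nuclei of saline animals (range 279.7 to 378.9) and 383.1 CPM in those of OTV:Malat1 animals (range 275.1 to 486.8). In Foxp2-led nuclei they summed to 373.7 and 387.2 CPM, and in Cux2-led nuclei to 315.4 CPM (range 259.9 to 359.3) and 444.8 CPM (range 357.3 to 599.2). The 5 microglial markers summed to 65.7 CPM in Rorb-led nuclei of saline animals and 76.7 in those of OTV:Malat1 animals, to 70.2 and 81.4 CPM in Cux2-led nuclei, and to 75.9 and 81.3 CPM in Foxp2-led nuclei. Their mean was higher in OTV:Malat1 in every led set but Etv1 (69.5 and 65.3 CPM). The 5 astrocyte markers went the other way in the mean, with 448.9 CPM in saline and 419.5 in OTV:Malat1 for Rorb-led nuclei. They summed to 201.3 and 192.2 CPM in Cux2-led and to 329.4 and 315.2 CPM in Foxp2-led nuclei. The 4 markers of oligodendrocyte precursors summed to 424.1 and 441.3, 546.9 and 558.9, and 480.7 and 506.1 CPM in the same order. Both lists overlapped between these groups in each of these sets. The 4 subcortical excitatory markers summed to 408.6 CPM in Rorb-led nuclei of saline animals and 477.2 in those of OTV:Malat1 animals. In Cux2-led nuclei they summed to 132.6 and 169.9 CPM and in Foxp2-led nuclei to 331.5 and 351.9 CPM, with overlap in each. The part of these marker lists in the shifts was not tested.

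The regulators also marked different shifts within single clusters, where the other neurons of that cluster were the reference. This view was added after the values above were seen, and it covered 41 sets of a regulator and a cluster with at least 20 led nuclei in every animal. In cluster 3, Rorb-led nuclei differed from the rest of the cluster by -0.06, -0.12, -0.13 and -0.02 in the saline animals and by -0.34, -0.36 and -0.33 in the OTV:Malat1 animals. Their Malat1 was 7.35% ± 1.60 of UMIs (SD, n = 4) against 4.05% ± 0.669 (n = 3), a log2 difference of -0.84. Cux2-led nuclei of the same cluster went from 7.76% ± 1.81 to 5.19% ± 0.83, a log2 difference of -0.56. Those led by Cux1 (-0.57) and Tshz2 (-0.56) were also lower in the mean, with overlap in these 3 sets and none in Rorb-led nuclei. Against the rest of the cluster, of which Rorb-led nuclei made up a large share (42.5% of cluster 3), Cux1-led and Cux2-led nuclei shifted up by 0.15 each. A shift up is thus relative: the mean level of Malat1 was lower in OTV:Malat1 than in saline in all 41 sets.

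Rorb-led nuclei were shifted down also in cluster 6 (-0.23) and in the thalamic-like cluster 12 (-0.16), but up in the inhibitory-like cluster 1 (0.18). Foxp2-led nuclei were shifted up without overlap in clusters 1 (0.15), 4 (0.28), 10 (0.19) and 12 (0.15). In the striatal-like cluster 10 their Malat1 was 6.58% ± 1.73 in saline and 5.89% ± 1.18 in OTV:Malat1, a log2 difference of -0.13 and the smallest of the 41 sets. The corticothalamic-like cluster 7 was different: Foxp2-led nuclei there overlapped with saline (0.07), while Tshz2-led nuclei, which held the near-projecting genes, were shifted down by -0.17. In clusters 1, 4, 5 and 8, Tshz2-led nuclei were shifted up, by 0.19 to 0.29. Cux2-led nuclei were shifted down in both inhibitory-like clusters, by -0.31 in cluster 1 and -0.20 in cluster 4, against a shift of 0.15 up in cluster 3. Shifts of Rorb, Cux2 and Tshz2 thus had both signs, each against the rest of its own cluster, and these references differ in their makeup.

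The largest shift was that of Bcl11b-led nuclei in cluster 1, the set high in Reln, Lamp5 and Ndnf. They stood above the rest of the cluster by 0.09, 0.17, 0.11 and 0.09 in the saline animals and below it by -0.31, -0.32 and -0.47 in the OTV:Malat1 animals. Their Malat1 went from 4.95% ± 1.18 to 2.50% ± 0.484, the lowest level of the 41 sets in OTV:Malat1 animals. The anti-TfR:Malat1 animals ranged from -0.10 to 0.10 and the Malat1 ASO animals from -0.0011 to 0.18, so the OTV:Malat1 animals lay below all others.

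Over the 41 sets, groups did not overlap in 20 for OTV:Malat1 against saline (9 shifted down, 11 up) and in 20 against anti-TfR:Malat1 (8 down, 12 up). The counts were 1 for Malat1 ASO and 0 for anti-TfR:Malat1 against saline. Over all genes of at least 10 CPM in these sets, groups did not overlap in 5.64% and 2.43% of differences in the OTV:Malat1 comparisons, and in 2.73% and 0.956% in the others. In the sets without overlap the sign was the same in every batch that could be compared. This follows from the lack of overlap and is no further check. The median size of the shift was 0.13 and 0.14 for the OTV:Malat1 comparisons, and 0.03 for each of the others. By exact two-sided permutation tests, adjusted over 164 tests, 0 sets passed the threshold, with a lowest adjusted p of 0.117 against saline and 0.103 against anti-TfR:Malat1. At an unadjusted permutation p under 0.05 there were 17 sets for OTV:Malat1 against saline and 22 against anti-TfR:Malat1. The counts against saline were 1 for Malat1 ASO and 2 for anti-TfR:Malat1. The sets share animals and clusters and are not independent of each other. Without the deposited doublets, 24 sets could be tested, of which 14 and 12 did not overlap in the OTV:Malat1 comparisons. The share of all genes without overlap was not computed for this setting. Of 15 sets that had not overlapped against saline and could still be tested, 13 did not overlap and all 15 kept their sign.

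**Figure D5:**
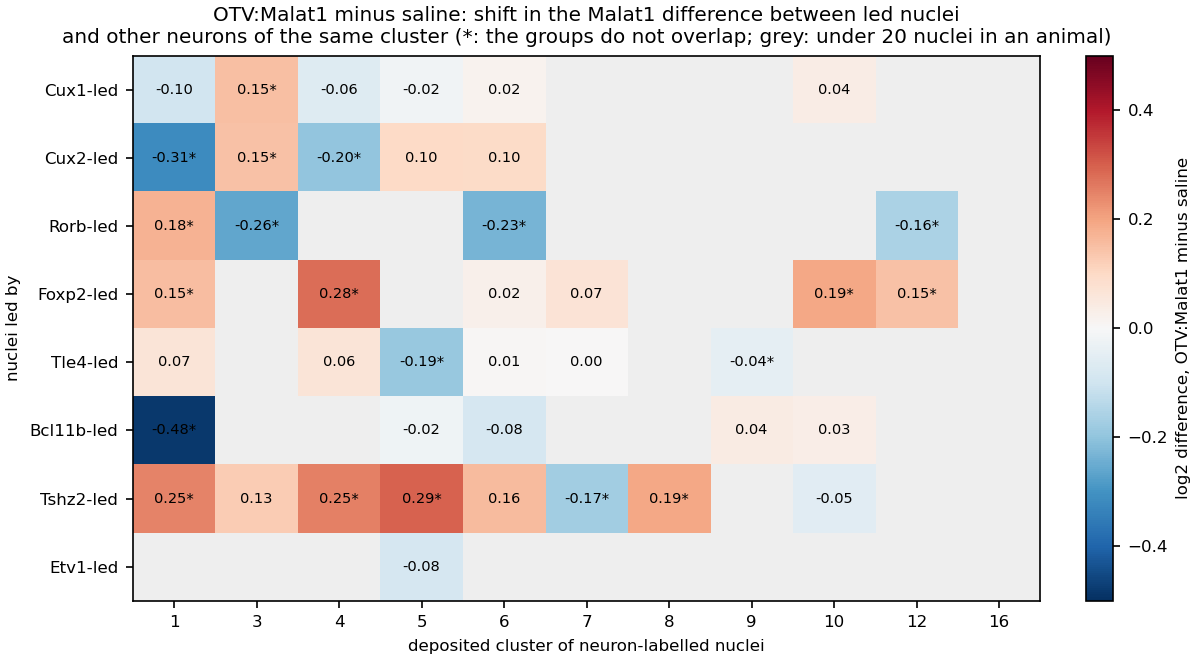
Shift, OTV:Malat1 minus saline, in the log2 difference of Malat1 between nuclei led by a regulator and the other neurons of the same deposited cluster; stars mark sets whose groups do not overlap, and grey sets with fewer than 20 led nuclei in some animal. Rorb-led nuclei are shifted down in clusters 3, 6 and 12, and Bcl11b-led nuclei in cluster 1 by -0.48.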

How the data were processed

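Single-nucleus UMI counts of the posterior brain were taken as the authors deposited them: whole-number counts per gene and nucleus, not normalized, with cluster numbers, cell type labels, doublet calls and batch numbers in a deposited table. Cell Ranger 6.0.1, Seurat 4 and the build mm10 are named in the submitters' processing notes; the filters on nuclei, the settings of the clustering, the doublet caller, what the batches were, and the reference of the cell type labels are not given in the sources used here. Per the file headers, the clusters are those of resolution 0.4. In the deposited table, 11 other columns were not used. Called doublets stayed in the main values. Of 273792 distinct barcode sequences, 10044 (3.67%) were found in 2 or more animals, at most 4.

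Counts were summed per animal over neuron-labelled nuclei, over the nuclei of a cluster, or over nuclei led by a regulator, where each animal gave at least 20 nuclei. The animal was the replicate. The sums were tested with edgeR 4.0.16 (quasi-likelihood F test, TMM, filterByExpr) in R 4.3.3 over all 17 animals, with Benjamini-Hochberg adjustment over all genes tested and a threshold of 0.05. DESeq2 1.42.0 was an alternative. Malat1 stayed in the library sizes. Within-animal differences and shares were tested by permuting animals exactly (two-sided), adjusted over members and comparisons. CPM carried a pseudocount of 1 on the log2 scale. Thinning, co-detection and figures used Python 3.11.15 with numpy 2.4.6, pandas 2.3.3, scipy 1.17.1 and matplotlib 3.10.9. The edgeR fit was tested on simulated data (20765 genes, OTV:Malat1 against saline), with 8 false calls, and 0 calls where nothing was changed.

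The 9 regulators, the 44 other layer genes and the cell type markers were chosen with earlier results of these data known. Named besides the regulators were the 2 genes most similar to each over clusters, the 10 most abundant of the 44, up to 4 of the 44 with the smallest adjusted p past the threshold (none passed), and marker genes that name a cluster. Genes that separate led nuclei within a cluster were picked from these marker lists after their values were seen. Alternatives covered the test, scaling, Malat1 in the library size, low counts, animals in the fit, replicate and batch blocks, doublets, shallow nuclei, each animal left out, the rule for leading and the thinning depth. Restriction to 11 clusters, leaving out cluster 16, the comparison within clusters and the shares of all genes without overlap in led nuclei were added after the data were seen. Replicate numbers were not used as pairs: the correlations between same-numbered Malat1 ASO and saline animals, which share a batch, were 0.40, -0.06, 0.71 and 0.67, and the numbers of OTV:Malat1 do not follow the batches. Animals of 1 batch and different groups had a median correlation of 0.387, against -0.100 for those of different batches. Of 26131 gene names, 25511 matched GENCODE M21. Protein sequences were not used here.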

Additional observations from a re-analysis of the deposited data

Results flagged for a closer look

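In 102 groups of 4 or 6 animals, 4 values lay far from the rest of their group, and chance flags about 1 in 20 such groups. Foxp2 led 8.32% of neurons in Malat1 ASO 3, below the 10.6% to 10.7% of the other Malat1 ASO animals. Bcl11b stood at 79.8 CPM in the same animal, below 96.1 to 99.2 CPM in the others. Cluster 16, low in UMIs, made up 9.69% of the neurons of Malat1 ASO 3 against a median of 0.454% over all animals. Without that cluster, Foxp2 led 9.20% of neurons in Malat1 ASO 3, against 10.6% to 10.8% in the others, and Bcl11b stood at 81.4 CPM against 96.2 to 99.2 CPM. Tle4 stood at 158.0 CPM in Malat1 ASO 2, above 134.7 to 137.8 CPM in the other animals of that group. Saline 2, also of batch 2, stood at 162.2 CPM against 131.1 to 137.9 CPM in the other saline animals. In the carrier groups the batch 2 animals, anti-TfR:Malat1 2 (148.6 CPM) and OTV:Malat1 1 (147.0 CPM), were within the range of their groups. In anti-TfR:Malat1 6, Malat1 in Etv1-led nuclei was above the other neurons by 0.28 on the log2 scale, the nearest animal of the group being at 0.10.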

How the results depend on the processing

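No treatment comparison of the regulators, of the 44 layer genes, of led shares or of Malat1 in led nuclei gave a call under any alternative run; the count was 0 in all, with the replicate block too. The lowest adjusted p over alternatives was 0.726 for regulators in neurons, 0.0535 within clusters, 0.0740 for Malat1 in led nuclei (all by edgeR or DESeq2) and 0.0714 for within-animal differences (exact permutation). Under the replicate block the shift against saline in OTV:Malat1 was -0.21 for Rorb-led, -0.09 for Cux2-led and 0.15 for Foxp2-led nuclei. This block joins OTV:Malat1 and saline animals of different batches. Within single batches the shift was -0.24 to -0.20, -0.12 to -0.07 and 0.09 to 0.21 in the same order. With each animal left out it was -0.24 to -0.20, -0.11 to -0.08 and 0.14 to 0.18. Small differences changed sign: 90 of 702 alternative values of regulator levels, 33 of 752 of Malat1 in led nuclei, 46 of 528 of within-animal differences and 92 of 666 of led shares.

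Pairs above 1 in all 17 animals numbered 6 at 500 UMIs, 19 without thinning and 1 when 2 UMIs were asked for. Cux2 and Rorb were then at 2.80 and Foxp2 and Tle4 at 1.33; without thinning Foxp2 and Tle4 were at 1.41, Rorb and Bcl11b at 0.560, and in cluster 7 Tshz2 and Etv1 at 2.34 and Foxp2 and Tshz2 at 0.654. Of the 18 most similar genes, 9 were shared at a minimum of 50 CPM, 6 by Spearman's rho and 6 over the 11 clusters. Without called doublets, 24 in place of 41 led sets within clusters were tested. Those that did not overlap numbered 0 for Malat1 ASO against saline and 12 for OTV:Malat1 against anti-TfR:Malat1. The share over all genes was not computed there. Groups of 3 and 4 animals limit every permutation p, and Fezf2 had few counts, with a mean of 0.034 UMIs per neuron.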
